A study of Rattus norvegicus with 68 samples.

Results

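Blood transcripts of 4 rats given 2500 mg/kg acetaminophen (APAP) and sampled at 6 h were compared with those of 4 rats given 1500 mg/kg and sampled at the same time. These 8 rats were all those whose labels carry either dose at 6 h, out of 34 treated rats in 9 groups of dose and time. The series profiled blood after graded doses of this analgesic, which damages the liver when overdosed. All animals were male F344/N rats, an inbred strain, of 10 to 12 weeks, dosed by oral gavage in an ethyl cellulose vehicle, with the dose split over 2 administrations. The rats given 2500 mg/kg carry the numbers 3595, 3596, 3597 and 3598, and those given 1500 mg/kg the numbers 3591, 3592, 3593 and 3594. Each rat was hybridised on 2 dual-colour arrays of opposite dye orientation, 16 arrays in all, against vehicle-treated control RNA of 6 h. The design text describes that control as a pool of 4 animals, whereas the array labels give it a single rat number. The same control served both doses and cancels in their difference, and a comparison of one dose with vehicle leaves out the control's own spread.

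A value is the log2 ratio of the treated rat to the vehicle control, averaged over the 2 arrays of a rat and over the probes of a gene, so that 1 is a doubling and -1 a halving against vehicle. An error after ± is the SD of the 4 rats in a group, and SE is the standard error of the fit. A dose difference is the mean ratio after 2500 mg/kg minus that after 1500 mg/kg. The direction of the deposited ratios, taken as Cy5 over Cy3, is likely but not stated, and the opposite one would turn every sign below. Ratios carry no level, so the labelled tissue could not be checked against markers of blood. In whole blood, fewer cells of a type and less RNA per cell cannot be told apart.

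As background, APAP is converted in the liver to a reactive quinone imine that consumes glutathione and binds protein, and dying hepatocytes then draw neutrophils and monocytes from the blood into the liver. The S100a8 and S100a9 proteins form calprotectin, the main calcium-binding protein of neutrophil cytoplasm. Lysozyme and some C-type lectin receptors are made by myeloid cells, not by monocytes alone. Ribosomal protein transcripts make up much of the messenger RNA of lymphocytes, and stress-induced glucocorticoids also redistribute white cells between blood and tissue.

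The rats given 2500 mg/kg did not have a common profile, and 2 of them stand apart from the other 6. Over all genes, rats 3597 and 3598 correlated with each other at r = 0.87, and with the 1500 mg/kg rats at 0.61 to 0.82. Rats 3595 and 3596 correlated with each other at 0.32, with rats 3597 and 3598 at 0.10 to 0.19, and with the 1500 mg/kg rats at 0.12 to 0.28. The 4 rats given 1500 mg/kg correlated among themselves at 0.69 to 0.82. These correlations are across 9653 genes, which are not independent, and all rats share the control, so they serve as a description. Per gene, the SD between rats had a median of 0.107 after 2500 mg/kg, against 0.0487 after 1500 mg/kg. It was the larger of the 2 after 2500 mg/kg in 84.5% of genes.

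**Figure D1:**
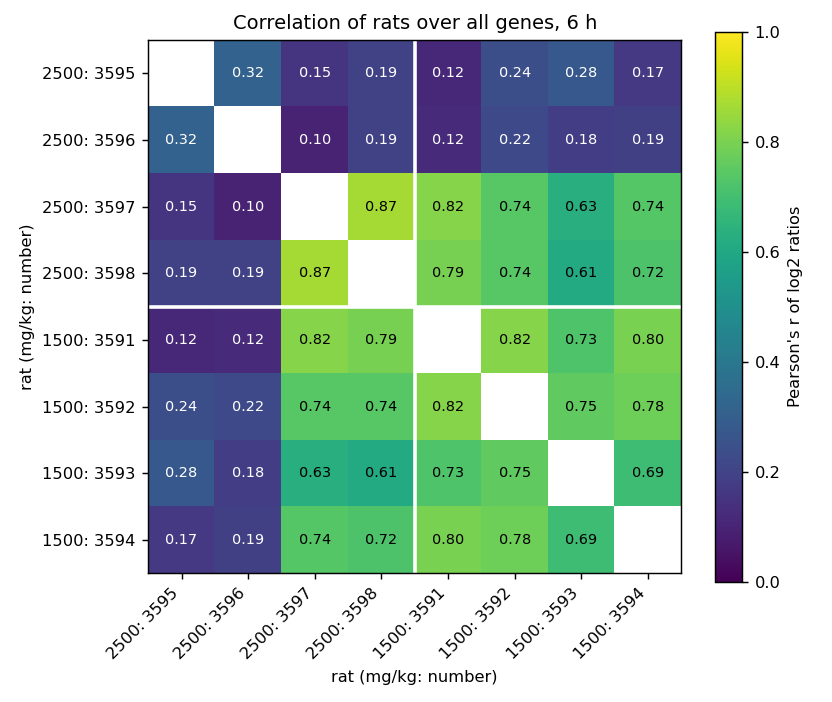
Pearson's r between the log2 ratios of each pair of the 8 rats over 9653 genes, 2500 mg/kg rats first and 1500 mg/kg rats after them. Rats 3597 and 3598 (r = 0.87) lie with the 1500 mg/kg rats, while rats 3595 and 3596 correlate with every other rat at 0.32 or less.

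The array of rat 3595 that carried its RNA in Cy5 had an SD over genes of 0.722, against 0.347 to 0.449 on the Cy5 arrays of the other 7 rats. Its Cy3 array had 0.361, against 0.366 to 0.437 in the others. The arrays of rat 3596 had 0.347 in Cy5, the lowest of the 8, and 0.427 in Cy3. Arrays of the same orientation correlated at 0.277 or more with the treated RNA in Cy5 and at 0.448 or more with it in Cy3. The 2 arrays of 1 rat, turned to treated over vehicle, correlated at -0.363 in rat 3595, -0.253 in rat 3596, 0.300 in rat 3597 and 0.140 in rat 3598, against 0.0184, -0.0478, -0.231 and -0.233 in rats 3591 to 3594. With the mean dye profile removed these correlations were 0.487, 0.109, 0.317 and 0.199 in rats 3595 to 3598, against 0.315, 0.194, 0.234 and 0.00873 in rats 3591 to 3594. With the Cy5 array of rat 3595 left out and the mean dye profile removed, an alternative chosen after seeing the data, 0 genes passed for the dose difference and 878 for 2500 mg/kg against vehicle. Whether these arrays account for the spread between rats was not tested.

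No gene passed a Benjamini-Hochberg adjusted p under 0.05 in limma's moderated test of the dose difference (0 of 9653, percent called 0), and none of 22075 probes did. At an unadjusted p under 0.05 there were 272 genes (2.82% of those tested), and 491 probes. That is a smaller share of genes than a threshold of 0.05 lets through when nothing differs. The smallest adjusted p of any gene was 0.0963, for Spsb2. The ratios of the 2 groups of rats did not overlap for 147 genes that were lower after 2500 mg/kg (1.52% of those tested) and for 135 that were higher (1.40%). The 3 genes with the smallest p, Spsb2, S100a8 and Clec4a3, had lower ratios after the higher dose.

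Against vehicle, each dose did change genes: 745 genes passed after 2500 mg/kg (7.72% of those tested, 245 higher and 500 lower), and 1228 after 1500 mg/kg (12.7%, 336 higher and 892 lower). The higher dose thus had fewer genes past the threshold, although these counts share a control and their difference was not tested by them. Leaving out 1 rat of the 2500 mg/kg group took its count to between 316 and 799, the lowest 2 being 316 without rat 3598 and 323 without rat 3597, and widening the standard errors for a control pool of 4 animals left 111 genes after 2500 mg/kg and 293 after 1500 mg/kg. The count after 1500 mg/kg was 689 to 809 with 1 of its own rats left out, more than 1.5 times below the full count for each of the 4 rats.

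The size of a rat's whole profile did not differ past the test between the doses. The SD of the log2 ratios over all genes was 0.319 in rat 3595, 0.228 in rat 3596, 0.343 in rat 3597 and 0.292 in rat 3598 after 2500 mg/kg, against 0.279, 0.260, 0.254 and 0.230 in rats 3591 to 3594 after 1500 mg/kg. The groups overlapped, with the lowest value of all in rat 3596. The mean was 0.296 ± 0.0498 after 2500 mg/kg and 0.256 ± 0.0201 after 1500 mg/kg (SD, n = 4 each), a difference of 0.0401 with p = 0.20 in a two-sided exact permutation test over the 70 splits of the rats, in which the smallest possible p is 0.0286. Without rat 3596 the difference was 0.0627 (exact permutation p = 0.0286, 3 rats against 4). That is the smallest p possible with these numbers of rats. It was reached by leaving out the lowest rat, after which the groups no longer overlapped. The number of genes beyond a 2-fold ratio was 147, 60, 292 and 170 in rats 3595 to 3598, against 155, 113, 91 and 86 in rats 3591 to 3594.

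For the mean of the 2 doses against vehicle, 2182 genes passed (22.6% of those tested), 792 of them higher and 1390 lower than vehicle. A gene can pass here through 1 dose alone, so these are not all changes that both doses share. Spsb2 passed (limma adjusted p = 0.00946) with means of -0.75 after 2500 mg/kg and 0.15 after 1500 mg/kg. The 5 highest means without values of 0 or at the limit of the scale were those of Serpinb1a, an inhibitor of neutrophil serine proteases (1.79, SE 0.25, limma adjusted p = 5.52e-06), Il1r2, the decoy receptor for interleukin 1 (1.29, SE 0.15, adjusted p = 3.43e-07), Sat1, which acetylates spermidine and spermine (1.13, SE 0.19, adjusted p = 9.45e-05), Ifit3, an interferon-induced protein (0.91, SE 0.20, adjusted p = 0.00128), and Prelid3b, a mitochondrial lipid transfer protein (0.85, SE 0.10, adjusted p = 5.72e-07). The 5 lowest were Clec4a3, a C-type lectin receptor of myeloid cells (-1.97, SE 0.15, adjusted p = 1.4e-09), Hnrnpa2b1, an RNA-binding protein (-1.88, SE 0.21, adjusted p = 2.49e-07), the antiapoptotic Bcl2a1 (-1.66, SE 0.21, adjusted p = 1.1e-06), Ramp1, a partner of the calcitonin receptor-like receptor (-1.64, SE 0.13, adjusted p = 2.83e-09), and Irf2bpl (-1.59, SE 0.23, adjusted p = 1.04e-05). Prelid3b did not pass on the Cy3 arrays alone (adjusted p = 0.0963).

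In Ramp1, Irf2bpl, Sat1 and Hnrnpa2b1 the dose difference was within 1 SE of 0. It was 0.29 (SE 0.39) for Sat1 and -0.39 (SE 0.42) for Hnrnpa2b1. Ramp1 was at -1.22, -1.22, -2.24 and -1.84 in rats 3595 to 3598 after 2500 mg/kg, and at -1.91, -1.70, -1.49 and -1.51 in rats 3591 to 3594 after 1500 mg/kg. The groups overlapped and the mean was -1.63 ± 0.50 after 2500 mg/kg and -1.65 ± 0.20 after 1500 mg/kg (SD, n = 4 each), a difference of 0.02 (SE 0.27). Irf2bpl averaged -1.41 ± 0.27 after 2500 mg/kg and -1.76 ± 0.27 after 1500 mg/kg. It was at -1.59 ± 0.32 (SD, n = 4) after 150 mg/kg as well, so its low ratio to the shared control was present at all 3 doses.

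Among the 2182 genes that passed for the mean of both doses, 1393 (63.8%) lay closer to vehicle after 2500 mg/kg than after 1500 mg/kg, against 55.4% of all 9653 genes whose dose difference ran against the sign of their mean. The median of the dose difference along the direction of the response was -0.02 over the 2182 genes and -0.01 over all genes. These genes were chosen by the mean of the same rats, so no test was made. The excess was on the side of the genes that were lower than vehicle, with 965 of 1390 nearer to vehicle after 2500 mg/kg, while 428 of 792 higher ones were.

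The share rested on particular rats. Leaving out rat 3596 took it to 52.2%, and leaving out rat 3595 to 58.9%, whereas leaving out rat 3597 gave 69.7% and rat 3598 gave 67.1%. Leaving out a 1500 mg/kg rat gave 60.3% to 65.2%. The median ratio of the 1390 genes lower than vehicle was -0.12 in rat 3595, -0.08 in rat 3596, -0.43 in rat 3597 and -0.35 in rat 3598 after 2500 mg/kg, against -0.36, -0.32, -0.30 and -0.28 in rats 3591 to 3594 after 1500 mg/kg. Rat 3597 was farther from vehicle than the 1500 mg/kg rats, rat 3598 was within their range, and rats 3595 and 3596 were nearer to vehicle than any of them. For the 792 genes higher than vehicle the medians were 0.13, 0.12, 0.16 and 0.15 in rats 3595 to 3598, against 0.14, 0.17, 0.15 and 0.15 in rats 3591 to 3594, which overlap.

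**Figure D2:**
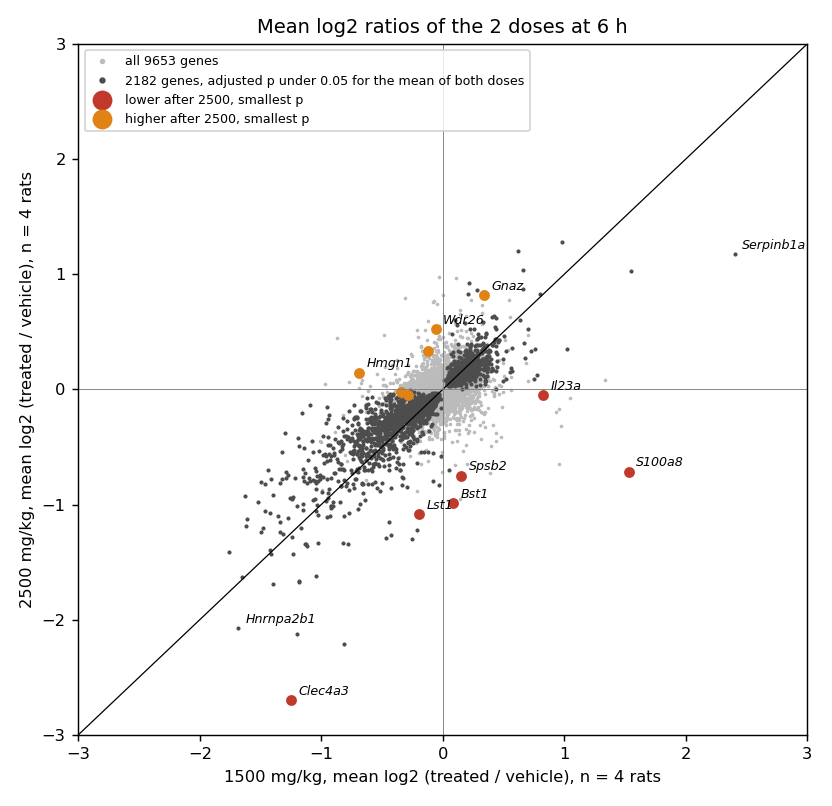
Mean log2 ratio to vehicle after 2500 mg/kg (vertical axis) against that after 1500 mg/kg (horizontal axis), n = 4 rats each, for 9653 genes, with the line of equal ratios. The 2182 genes that passed for the mean of both doses are drawn darker. S100a8, which is not one of them, lies below the line, at -0.71 after 2500 mg/kg and 1.53 after 1500 mg/kg.

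The 6 genes with the smallest p for the dose difference in each direction are described here although none passed. S100a8, a calprotectin subunit, was at 0.24, 0.04, -1.68 and -1.46 in rats 3595 to 3598 after 2500 mg/kg, and at 0.9997, 1.72, 2.10 and 1.31 in rats 3591 to 3594 after 1500 mg/kg. Every rat of the lower dose lay above every rat of the higher dose, and rats 3597 and 3598 were below vehicle. The difference was -2.25 (SE 0.47, limma adjusted p = 0.206), 4.74-fold. S100a8 was at -0.29 ± 0.18 (SD, n = 4) after 150 mg/kg, against 1.53 ± 0.48 after 1500 mg/kg and -0.71 ± 0.99 after 2500 mg/kg, so the middle dose had the highest mean.

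Spsb2, a substrate receptor of a ubiquitin ligase that targets inducible nitric oxide synthase, was at -0.57, -0.60, -0.94 and -0.89 in rats 3595 to 3598 after 2500 mg/kg, and at 0.16, 0.06, 0.29 and 0.10 in rats 3591 to 3594 after 1500 mg/kg. The 2 groups lay on opposite sides of vehicle without overlap, and the difference was -0.90 (SE 0.17, limma adjusted p = 0.0963). Against vehicle Spsb2 fell after 2500 mg/kg (adjusted p = 0.000133) and did not pass after 1500 mg/kg (adjusted p = 0.486). On the Cy3 arrays alone it passed for the dose difference (adjusted p = 0.0452), as it did in the fit of the 12 rats of 6 h (0.0366) and with arrays scaled to a common spread (0.0228).

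Clec4a3 was at -1.74, -2.57, -3.03 and -3.47 in rats 3595 to 3598 after 2500 mg/kg, and at -1.47, -1.59, -0.74 and -1.20 in rats 3591 to 3594 after 1500 mg/kg. Every rat of both groups was below vehicle, and the higher dose lay lower without overlap. The difference was -1.45 (SE 0.31, limma adjusted p = 0.206), 2.74-fold, and it passed when rat 3595 was left out (-1.77, adjusted p = 0.0229) and on the Cy3 arrays alone (-1.68, adjusted p = 0.0259). Clec4a3 was at -0.38 ± 0.13 (SD, n = 4) after 150 mg/kg, at -1.25 ± 0.38 after 1500 mg/kg and at -2.70 ± 0.74 after 2500 mg/kg, with limma adjusted p = 0.000398 for 2500 against 150 mg/kg.

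Lst1, a leukocyte-specific transcript of the major histocompatibility region, averaged -1.09 ± 0.27 after 2500 mg/kg and -0.19 ± 0.19 after 1500 mg/kg (SD, n = 4 each), without overlap. Bst1, the ectoenzyme CD157 of myeloid and stromal cells, averaged -0.99 ± 0.34 after 2500 mg/kg and 0.08 ± 0.20 after 1500 mg/kg. Both fell against vehicle after 2500 mg/kg (limma adjusted p = 2.12e-05 and 0.00117), and neither passed after 1500 mg/kg (0.474 and 0.86). Il23a, the p19 subunit of interleukin 23, averaged -0.05 ± 0.29 after 2500 mg/kg and 0.83 ± 0.15 after 1500 mg/kg, but 3 of its 16 array values were exactly 0. The limma adjusted p of these 3 differences was 0.412 for Lst1, 0.716 for Bst1 and 0.716 for Il23a.

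**Figure D3:**
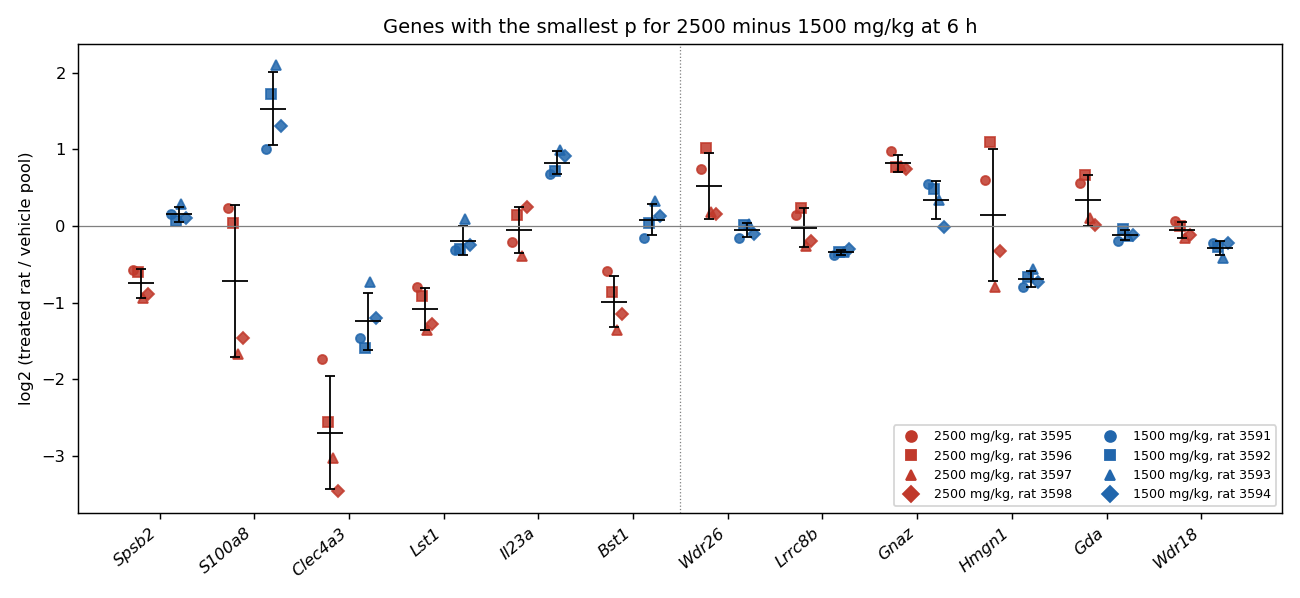
Log2 ratio to vehicle in each rat for the 6 genes with the smallest p in each direction, 2500 mg/kg (red) left of 1500 mg/kg (blue), with mean and SD bars (n = 4). Spsb2, Clec4a3, Lst1 and Bst1 lie lower in all 4 rats of the higher dose, while Hmgn1 lies above 0 in rats 3595 and 3596 and below 0 in rats 3597 and 3598.

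In the other direction the differences were smaller. Gnaz, a G-protein alpha subunit of platelets and neurons, was at 0.99, 0.77, 0.78 and 0.75 in rats 3595 to 3598 after 2500 mg/kg, and at 0.55, 0.48, 0.34 and -0.02 in rats 3591 to 3594 after 1500 mg/kg. All 4 rats of the higher dose lay above the lower dose. The difference was 0.48 (SE 0.14, limma adjusted p = 1), and Gnaz rose against vehicle at both doses (adjusted p = 3.56e-06 after 2500 mg/kg and 0.019 after 1500 mg/kg).

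In the other 5 genes rats 3595 and 3596 had the highest ratios of the 8 rats. Wdr26, a subunit of a ubiquitin ligase of maturing red cells, was at 0.74 and 1.02 in these 2 rats and at 0.18 and 0.15 in rats 3597 and 3598, against -0.16, 0.01, 0.03 and -0.11 in rats 3591 to 3594 after 1500 mg/kg. Hmgn1, a nucleosome-binding protein, was at 0.60 and 1.10 in rats 3595 and 3596 and at -0.80 and -0.32 in rats 3597 and 3598, against -0.80 to -0.56 after 1500 mg/kg, and its groups overlapped. Gda, guanine deaminase, was at 0.56, 0.67, 0.10 and 0.01 in rats 3595 to 3598, against -0.20 to -0.03 after 1500 mg/kg. The differences were 0.58 (SE 0.15) for Wdr26, 0.83 (SE 0.25) for Hmgn1, 0.46 (SE 0.14) for Gda, 0.32 (SE 0.09) for Lrrc8b, a subunit of volume-regulated anion channels, and 0.23 (SE 0.07) for Wdr18, a ribosome biogenesis factor, each with limma adjusted p = 1. With the median over a gene's probes in place of the mean, Lrrc8b had 0.07.

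Without rat 3595 or without rat 3596 these 12 differences kept their sign. S100a8 had -2.56 without rat 3595 and -2.50 without rat 3596 (limma adjusted p = 0.0679 and 0.189), and Spsb2 had -0.96 and -0.95 (0.0679 and 0.172). Clec4a3, which passed without rat 3595, had -1.50 without rat 3596 (adjusted p = 0.466). Lyz2, lysozyme, had -1.59 and -1.70. Among the genes with higher ratios, Wdr26 had 0.51 without rat 3595 and 0.41 without rat 3596, Hmgn1 had 0.68 and 0.52, and Gda had 0.38 and 0.34.

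Promoter sequence is shown for 3 myeloid genes that lay lower in all 4 rats given 2500 mg/kg, each of which has 1 entry in RefSeq's rat table (build GRCr8). Tlr2 and Serpinb1a meet the same conditions and are not shown. Of the motifs below, Tlr2 holds neither and Serpinb1a holds GAGGAA. The 250 bases before the annotated start are printed in the gene's direction, and capitals mark GAGGAA, a core of sites of the myeloid factor PU.1, and TTGCNNAA, a form of C/EBP sites, on either strand.
Lyz2, chr7:54798012-54798261, minus strand: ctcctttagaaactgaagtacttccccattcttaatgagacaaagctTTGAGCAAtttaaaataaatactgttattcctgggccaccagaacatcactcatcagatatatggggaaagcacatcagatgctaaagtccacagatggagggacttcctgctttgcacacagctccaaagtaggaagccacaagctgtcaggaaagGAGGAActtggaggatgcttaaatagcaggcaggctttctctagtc
Clec4a3, chr4:157886508-157886757, plus strand: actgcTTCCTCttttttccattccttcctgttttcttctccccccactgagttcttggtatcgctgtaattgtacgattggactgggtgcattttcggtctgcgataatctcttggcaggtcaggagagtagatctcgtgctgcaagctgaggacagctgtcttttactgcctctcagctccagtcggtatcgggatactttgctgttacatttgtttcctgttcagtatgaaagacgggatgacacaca
Bst1, chr14:71482648-71482897, minus strand: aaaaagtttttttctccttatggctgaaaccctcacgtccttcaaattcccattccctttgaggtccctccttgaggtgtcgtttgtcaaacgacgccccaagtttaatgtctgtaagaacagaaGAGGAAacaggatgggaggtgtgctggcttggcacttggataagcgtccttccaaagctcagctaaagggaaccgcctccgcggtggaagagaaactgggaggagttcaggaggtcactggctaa
GAGGAA on either strand was in each of these 3, and TTGCNNAA in that of Lyz2. Over 18 genes of the dose difference and of the neutrophil and monocyte lists that were looked up, 12 had 1 entry. GAGGAA was in 6 of 7 with lower ratios after 2500 mg/kg, Tlr2 being without it, and in 1 of 5 with higher ratios. All genes added from the 2 lists had lower ratios, so the lower group was weighted toward myeloid genes by this choice. The counts therefore cannot tie the motif to the dose difference. Of 33469 promoters of the same length, 23.3% held GAGGAA and 9.22% held TTGCNNAA, and the 2 motifs did not overlap in these sequences. A match is only a string in this window.

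Of 19 measured genes of the monocyte and macrophage list, 0 passed for the dose difference, 5 were lower without overlap (against 1.52% of all genes) and 0 higher. Their median difference was -0.04, against 0 over all genes. With the mean dye profile removed it was -0.04. With the Cy5 array of rat 3595 left out as well it was -0.00054, with 9 genes higher and 10 lower, against 0.03 over all genes. Leaving out rat 3595 gave -0.03, rat 3596 gave -0.07, rat 3592 gave -0.02 and rat 3594 gave -0.02. Of the 19 genes 13 had a lower and 6 a higher mean after 2500 mg/kg. Lyz2, lysozyme, was at -1.64, -1.31, -3.04 and -2.84 in rats 3595 to 3598 after 2500 mg/kg, and at -1.25, -1.18, -0.31 and -0.50 in rats 3591 to 3594 after 1500 mg/kg. All 8 rats were below vehicle, and the difference was -1.40 (SE 0.38, limma adjusted p = 1), 2.64-fold. Sirpa, the receptor for CD47 on phagocytes, averaged -1.29 ± 0.17 after 2500 mg/kg and -0.47 ± 0.21 after 1500 mg/kg (SD, n = 4 each), without overlap. Tlr2, a receptor for bacterial lipoproteins, was at 0.59, 0.17, -0.84 and -0.70 in rats 3595 to 3598 after 2500 mg/kg, and at 0.86, 1.14, 1.13 and 0.61 in rats 3591 to 3594 after 1500 mg/kg.

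Lyz2 and Sirpa at 150 mg/kg stood where they did at 1500 mg/kg. Lyz2 averaged -0.80 ± 0.38 after 150 mg/kg, -0.81 ± 0.47 after 1500 mg/kg and -2.21 ± 0.86 after 2500 mg/kg (SD, n = 4 each). Sirpa averaged -0.45 ± 0.15 after 150 mg/kg, -0.47 ± 0.21 after 1500 mg/kg and -1.29 ± 0.17 after 2500 mg/kg. Neither passed for 2500 against 150 mg/kg (limma adjusted p = 0.239 for Lyz2 and 0.221 for Sirpa).

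Of 16 measured neutrophil genes, 0 passed, 3 were lower without overlap (against 1.52% of all genes) and 0 higher, with a median difference of -0.08, which was -0.21 on the Cy3 arrays and -0.05 on the Cy5 arrays. Leaving out rat 3595 gave -0.05, rat 3593 gave -0.05 and rat 3592 gave -0.13. S100a9, the partner of S100a8, was at 0.74, 1.10, -0.997 and -0.52 in rats 3595 to 3598 after 2500 mg/kg, and at 0.80, 1.44, 1.91 and 1.19 in rats 3591 to 3594 after 1500 mg/kg, so that rat 3596 overlapped with the lower dose. Serpinb1a averaged 1.17 ± 0.49 after 2500 mg/kg and 2.40 ± 0.67 after 1500 mg/kg (difference -1.23, SE 0.50, limma adjusted p = 1), without overlap, and rose against vehicle at both doses (adjusted p = 0.0368 after 2500 mg/kg and 4.31e-05 after 1500 mg/kg). Ncf4, the p40 subunit of the phagocyte oxidase, averaged -0.48 ± 0.50 after 2500 mg/kg and 0.19 ± 0.19 after 1500 mg/kg, without overlap. In S100a8, S100a9, Tlr2 and Ncf4 alike, rats 3597 and 3598 were the 2 lowest of the 8.

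In 3 signalling genes of inflammation rats 3597 and 3598 were again the lowest of the 8. Il1b, interleukin 1 beta, was at 0.03, 0.35, -1.34 and -0.82 in rats 3595 to 3598 after 2500 mg/kg, against 0.18, 0.49, 0.70 and 0.37 in rats 3591 to 3594 after 1500 mg/kg (difference -0.88, SE 0.38, limma adjusted p = 1). Cebpd, a C/EBP factor of acute inflammation, averaged -0.43 ± 0.60 after 2500 mg/kg and 0.31 ± 0.16 after 1500 mg/kg. Ccl6, a myeloid chemokine of rodents, averaged -0.38 ± 0.68 after 2500 mg/kg and 0.44 ± 0.18 after 1500 mg/kg, without overlap. Other members of the chemokine list went otherwise. Ackr3 was at -1.17, -0.18, 0.14 and 0.40 in rats 3595 to 3598, against 0.20 to 0.46 after 1500 mg/kg. Ccl5 and Cxcl6 had higher means after 2500 mg/kg (differences 0.50 and 0.28). After 2500 mg/kg 26 inflammatory signalling genes had a lower and 9 a higher mean, and 24 and 15 of the chemokine list did. Of 35 inflammatory signalling genes 1 was lower without overlap, and of 39 chemokines and their receptors 2 were (against 1.52% of all genes), with 0 higher in either list and 0 past the test.

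Immediate early and feedback genes of MAP kinase signalling numbered 35, of which 0 passed, 2 were lower (against 1.52% of all genes) and 1 higher (against 1.40%) without overlap. Rgs2, a regulator of G-protein signalling, averaged -0.70 ± 0.36 after 2500 mg/kg and 0.05 ± 0.23 after 1500 mg/kg (difference -0.76, SE 0.24, limma adjusted p = 1). Dusp6, the phosphatase of ERK, fell against vehicle at both doses, with means of -1.67 ± 0.30 after 2500 mg/kg and -1.18 ± 0.27 after 1500 mg/kg (adjusted p = 3.15e-07 and 3.09e-05) and a difference of -0.48 (SE 0.24).

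Cytosolic ribosomal proteins were the list with the largest median difference. All 47 measured members had a higher mean after 2500 mg/kg, with a median difference of 0.31, but 0 passed and 1 was higher without overlap (against 1.40% of all genes). The median over the list was -0.11 in rat 3595, 0.31 in rat 3596, -0.89 in rat 3597 and -0.65 in rat 3598 after 2500 mg/kg, against -0.75, -0.64, -0.54 and -0.51 in rats 3591 to 3594 after 1500 mg/kg. Rats 3597 and 3598 were therefore within or below the range of the lower dose, and rats 3595 and 3596 above it. Without rat 3596 the median difference was 0.10 with 38 of 47 members higher, more than 1.5 times smaller, and without rat 3597 it was 0.52. Over 8 other ways of making the values, such as scaling the arrays or taking 1 dye orientation, the median stayed between 0.27 and 0.40, with at least 45 of 47 members higher.

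Against vehicle, 5 of the 47 ribosomal protein genes fell after 2500 mg/kg (against 5.18% of all genes) and 29 fell after 1500 mg/kg (against 9.24%), with 0 higher at either dose. Rpl5, a protein of the large subunit, was at -0.17, 0.55, -1.91 and -1.28 in rats 3595 to 3598 after 2500 mg/kg, and at -1.71, -1.47, -1.26 and -1.31 in rats 3591 to 3594 after 1500 mg/kg. The difference was 0.74 (SE 0.39, limma adjusted p = 1), and rats 3595 and 3596 were the 2 highest of the 8 in it and in Rpl6 (difference 0.64), Rpl9 (0.69) and Rps19 of the small subunit (0.45). Without rat 3596 the 4 differences were 0.32 for Rpl5, 0.30 for Rpl6, 0.22 for Rpl9 and 0.22 for Rps19. Rpl5 fell against vehicle after 1500 mg/kg (adjusted p = 0.000606) and did not pass after 2500 mg/kg (0.122).

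**Figure D4:**
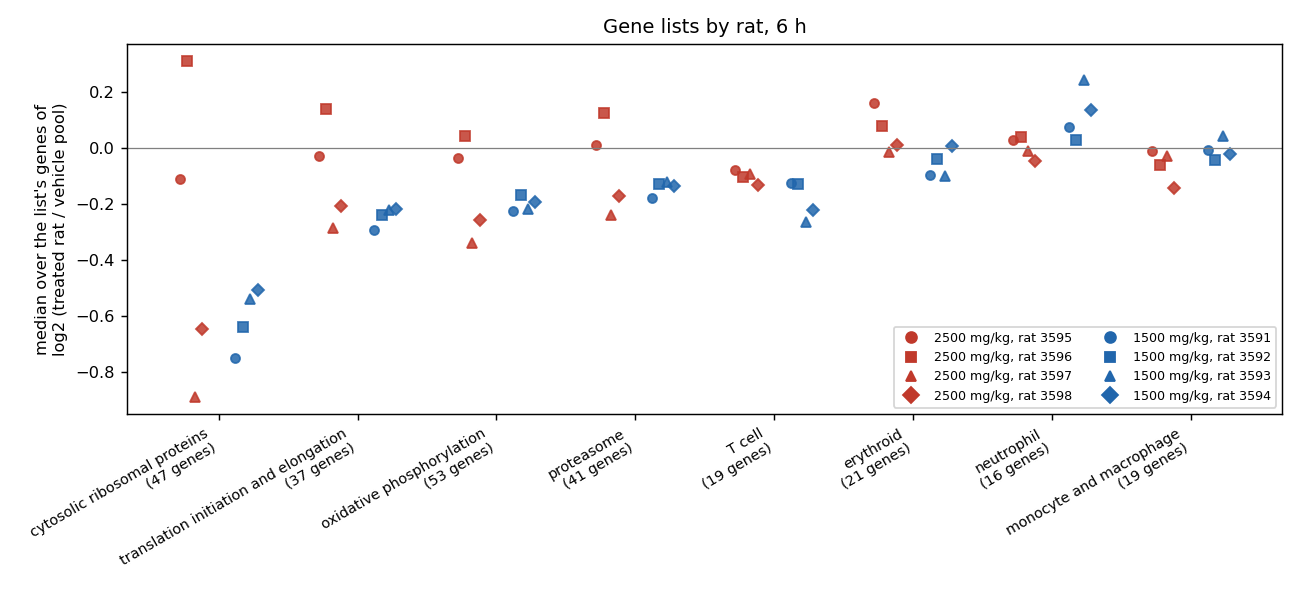
Median log2 ratio to vehicle over the genes of 8 lists in each rat, 2500 mg/kg (red) left of 1500 mg/kg (blue). Rats 3595 and 3596 lie above the other 6 rats for ribosomal proteins (-0.11 and 0.31), translation factors, oxidative phosphorylation and the proteasome.

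The other lists of protein synthesis, turnover and respiration had smaller medians of the same sign. Of 37 translation factors, 31 had a higher mean after 2500 mg/kg (median difference 0.14, and 0.06 without rat 3596), 0 passed and 2 were higher without overlap (against 1.40% of all genes). Eif4a1, the helicase of initiation, was at -0.05, 0.42, -1.01 and -0.36 in rats 3595 to 3598, against -1.05, -0.88, -0.68 and -0.68 in rats 3591 to 3594 after 1500 mg/kg. Of 53 oxidative phosphorylation genes 46 were higher (median 0.09, and 0.00, 0.05, 0.17 and 0.16 with rat 3596, 3595, 3597 or 3598 left out), and of 41 proteasome genes 33 were (median 0.08, and 0.03, 0.03 and 0.14 with rat 3596, 3595 or 3597 left out). Against vehicle, 6 of 37, 8 of 53 and 6 of 41 genes of the 3 lists fell after 2500 mg/kg, against 5.18% of all genes, and 15, 22 and 12 of them fell after 1500 mg/kg, against 9.24% of all genes.

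No lymphocyte gene passed for the dose difference. Of 19 T cell genes 0 passed and 0 were without overlap, with a median difference of 0.10 that was 0.01, 0.02 and 0.15 with rat 3595, 3596 or 3597 left out. Of these genes 15 had a higher and 4 a lower mean after 2500 mg/kg. The median of their mean ratios was nevertheless -0.17 after 2500 mg/kg and -0.15 after 1500 mg/kg. Cd6, a T cell surface glycoprotein, fell against vehicle at both doses, with means of -0.58 ± 0.45 after 2500 mg/kg and -0.96 ± 0.05 after 1500 mg/kg (limma adjusted p = 0.0331 and 0.000321). Cd3g, a chain of the T cell receptor complex, averaged -0.50 ± 0.37 after 2500 mg/kg and -0.83 ± 0.07 after 1500 mg/kg. The B cell list (9 genes, median 0.00), the NK and cytotoxic list (21, 0.05) and MHC class II (6, 0.01) had no gene without overlap. Gzmk, a granule protease, had the smallest p of the NK and cytotoxic list. It was at 0.65, 1.07, -0.25 and 0.14 in rats 3595 to 3598, against -0.09 to -0.04 after 1500 mg/kg. Klrc1, the next by p, went the other way, with a difference of -0.37 and rat 3595 lowest at -0.66. Of the 21 genes of this list 14 had a higher and 7 a lower mean after 2500 mg/kg.

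Of 21 erythroid genes, 18 had a higher mean after 2500 mg/kg (median difference 0.10, 0.06 without rat 3596 and 0.16 without rat 3597), 0 passed and 1 was higher without overlap (against 1.40% of all genes). That one was Tfrc, the transferrin receptor, at 0.13 ± 0.06 after 2500 mg/kg and 0.04 ± 0.02 after 1500 mg/kg. Bnip3l, which clears mitochondria from reticulocytes, was at 0.32, 0.82, -0.17 and 0.06 in rats 3595 to 3598, against -0.24 to 0.11 after 1500 mg/kg. The median ratio over the 21 erythroid genes was 0.16, 0.08, -0.01 and 0.01 in rats 3595 to 3598, against -0.10, -0.04, -0.10 and 0.01 in rats 3591 to 3594, and the part of red cell precursors in the other results was not tested. Of 14 platelet genes 1 was higher without overlap (median 0.04), against 1.40% of all genes.

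Ddit3, the transcription factor CHOP of the integrated stress response, was at 0.77, 0.99, 0.26 and 0.38 in rats 3595 to 3598 after 2500 mg/kg, and at 0.08, 0.11, 0.11 and 0.09 in rats 3591 to 3594 after 1500 mg/kg. All 4 rats of the higher dose lay above the lower dose, the difference was 0.50 (SE 0.16, limma adjusted p = 1), and Ddit3 rose against vehicle after 2500 mg/kg (adjusted p = 0.000845) and did not pass after 1500 mg/kg (0.68). Hspa5, the chaperone BiP, was at 0.36, 0.96, -0.94 and -0.32 in rats 3595 to 3598, against -0.79 to -0.62 after 1500 mg/kg. Of 29 genes of this list 1 was higher without overlap (median 0.07), and of 28 heat shock genes 1 was (median 0.08), against 1.40% of all genes.

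Of 43 genes of the Nrf2 and oxidative stress list, 0 passed, 2 were higher (against 1.40% of all genes) and 1 lower (against 1.52%) without overlap (median 0.05). Nqo1, a quinone reductase induced by Nrf2, was at -0.47, -0.27, -0.65 and -0.41 in rats 3595 to 3598 after 2500 mg/kg, and at 0.01, 0.15, 0.15 and 0.16 in rats 3591 to 3594 after 1500 mg/kg (difference -0.57, SE 0.24, limma adjusted p = 1). Abcc1, an exporter of glutathione conjugates, went the other way, at 0.13 ± 0.15 after 2500 mg/kg and -0.23 ± 0.13 after 1500 mg/kg. Gclm, the modifier subunit of glutamate-cysteine ligase, averaged -0.02 ± 0.28 after 2500 mg/kg and -0.27 ± 0.07 after 1500 mg/kg.

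Of 29 p53 targets, 2 were higher (against 1.40% of all genes) and 1 lower (against 1.52%) without overlap. Tigar, a regulator of glycolysis, had a difference of 0.52 (SE 0.17), but rat 3593 alone was at -1.51 in the 1500 mg/kg group, whose other rats were at -0.30 to -0.26, and without it the difference was 0.21. Pcna, the sliding clamp of DNA replication, averaged 0.12 ± 0.25 after 2500 mg/kg and -0.18 ± 0.08 after 1500 mg/kg. In the cell cycle list (36 genes, median 0.01) Stmn1, a microtubule regulator, averaged -0.14 ± 0.48 after 2500 mg/kg and -0.73 ± 0.19 after 1500 mg/kg, whereas Mcm5 of the replicative helicase averaged -0.83 ± 0.50 after 2500 mg/kg and -0.33 ± 0.11 after 1500 mg/kg.

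Of 29 glucocorticoid response genes, 0 passed and 1 was lower without overlap (against 1.52% of all genes, median 0.03). Fkbp5, a cochaperone induced by glucocorticoids, rose against vehicle at both doses, to 0.59 ± 0.32 after 2500 mg/kg and 0.33 ± 0.10 after 1500 mg/kg (limma adjusted p = 2.3e-05 and 0.0052), with a difference of 0.26 (SE 0.11, adjusted p = 1) that was 0.04 with the median over its probes and 0.16 without rat 3596. Klf9, another target, was at 0.16, 0.71, -1.08 and -0.32 in rats 3595 to 3598 after 2500 mg/kg, and at -1.09, -0.81, -1.03 and -1.45 in rats 3591 to 3594 after 1500 mg/kg. Odc1, the first enzyme of polyamine synthesis, averaged 0.20 ± 0.16 after 2500 mg/kg and -0.18 ± 0.07 after 1500 mg/kg, without overlap, in a list of 9 genes with a median difference of 0.15.

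Among 58 liver-enriched transcripts, 0 passed and 2 were lower without overlap (against 1.52% of all genes, median -0.02). The member with the smallest p, complement C3, is also made by monocytes and averaged -1.15 ± 0.49 after 2500 mg/kg and -0.45 ± 0.30 after 1500 mg/kg. Fgg, the gamma chain of fibrinogen, averaged -0.07 ± 0.21 after 2500 mg/kg and 0.16 ± 0.06 after 1500 mg/kg. The lists of interferon response (30 genes, median -0.04), cytochrome P450 and conjugation (53, 0.00), glycolysis and hypoxia (29, 0.00), apoptosis regulators (39, -0.01) and clock (13, -0.01) had 0 genes past the test as well.

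Some further members without overlap are listed here with the dose difference of each. Klf4, Aldh1a1, Eif4e2 and clusterin were among the members with the smallest p of their lists. The others were not, and were chosen after their values were seen. Fcgr1a, a high-affinity receptor for antibody, had -0.26, Ifit1 of the interferon response -0.23, and the chemokine receptor Cxcr1 -0.07. Anxa1, the annexin induced by glucocorticoids, had -0.42, Klf4 -0.12 and Jund 0.10. Rbp4, the retinol carrier of plasma, had -0.48 and Aldh1a1, a retinal dehydrogenase, -0.14. Rps10 had 0.13, Eif3d 0.23, Eif4e2 0.31, Atp5mc1 of ATP synthase 0.08, clusterin (Clu) of platelets 0.13, the cochaperone Bag3 0.06, Gstp1 0.09 and Rev3l -0.05. Each had a limma adjusted p of 1.

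The dose difference was also set against that of 24 h. In the change of the dose difference between 6 h and 24 h 0 genes passed (359 at an unadjusted p under 0.05, smallest limma adjusted p = 0.969), and between 6 h and 12 h 0 passed (366 at an unadjusted p under 0.05). S100a8, with a difference of -2.25 at 6 h, had -0.41 at 12 h and 0.05 at 24 h, when it averaged 2.90 ± 0.89 after 2500 mg/kg and 2.85 ± 1.03 after 1500 mg/kg (SD, n = 4 each). The change of -2.29 (SE 0.67) had an adjusted p of 0.969. Serpinb1a, with -1.23 at 6 h and -0.90 at 12 h, averaged 3.37 ± 0.88 after 2500 mg/kg and 3.45 ± 0.70 after 1500 mg/kg at 24 h, while Lyz2, with -0.77 at 12 h, averaged -0.45 ± 0.64 after 2500 mg/kg and 0.63 ± 0.65 after 1500 mg/kg.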

How the data were processed

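Log10 ratios of 2 dyes for 22075 probes on 68 arrays were deposited by the authors, with values limited to 2 in size. Background correction and normalization are not given in the sources used here, nor is the direction of the ratio, taken as Cy5 over Cy3. Ratios were turned to treated over vehicle by the labels' dyes, converted to log2 (times 3.32), and each rat's pair of arrays was averaged into 1 replicate. No depth exists for arrays, and 4 rats a group limit the precision. Of the probes, 12750 had 1 gene, 5 several and 9320 none in the platform annotation, and 12720 took current GRCr8 symbols through Entrez identifiers. A gene's value is the mean over its probes (9653 genes, 2266 with over 1 probe). In the 16 arrays 3.16% of values were exactly 0 and 0.555% at the limit, and all were kept.

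A mean per group was fitted to all 34 rats with limma 3.58.1 in R 4.3.3 (lmFit, eBayes, 25 residual degrees of freedom, prior 1.73 for genes and 1.55 for probes), with Benjamini-Hochberg adjustment over all genes or probes and a threshold of 0.05. The fit takes 1 spread per gene for all groups. The fit was also run on simulated data as a check of the code, which bears on no result here. Named genes were, for lack of genes past the threshold, the 6 with the smallest p in each direction, the 5 highest and lowest means of both doses that passed and had no value of 0 or at the limit, and up to 4 list members with the smallest p. The 28 gene lists, their members and the groups compared were chosen with earlier results of these data known. List symbols were matched through RefSeq synonyms where needed (8 members). Alternatives are given in the closing section.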

Additional observations from a re-analysis of the deposited data

Results flagged for a closer look

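Of 120 groups of 4 values examined for a distant rat, 5 had one whose gap to the nearest of the others exceeded Dixon's critical share of the group's range, and about 5% are expected to by chance. Lst1 was at 0.0921 in rat 3593 of the 1500 mg/kg group, whose other rats were at -0.32 to -0.25. Gnaz was at 0.99 in rat 3595 of the 2500 mg/kg group, against 0.75 to 0.78 in the others. Cd3g was at -0.73 in rat 3592 of the 1500 mg/kg group, against -0.87 to -0.85. Nqo1 was at 0.0140 in rat 3591 of the 1500 mg/kg group, against 0.15 to 0.16. Tigar was at -1.51 in rat 3593 of the 1500 mg/kg group, against -0.30 to -0.26, and its dose difference of 0.52 was 0.81 on the Cy5 arrays and 0.24 on the Cy3 arrays.

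Gnaz also changed its dose difference with time. It was higher after 2500 mg/kg without overlap at 6 h (0.82 ± 0.11, against 0.34 ± 0.25 after 1500 mg/kg) and lower without overlap at 24 h (-0.44 ± 0.06, against -0.23 ± 0.10; SD, n = 4 each). The change was 0.69 (SE 0.19, limma adjusted p = 0.969) and did not pass.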

How the results depend on the processing

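The dose differences of the 52 genes recomputed kept their sign under the alternatives run (1040 values, 0 reversed). Not recomputed were those of Ramp1, Irf2bpl, Sat1, Hnrnpa2b1, Ackr3, Ccl5, Cxcl6, Klrc1 and the further members without overlap listed by difference only. Ramp1 had 0.07 on Cy5 and -0.04 on Cy3 arrays. Of the 1040 values 5 passed the threshold where the full fit did not, all for Spsb2 or Clec4a3. Spsb2 passed with arrays scaled to a common spread (-1.13), on Cy3 arrays alone (-0.92) and with the 12 rats of 6 h (-0.90). Clec4a3 passed on Cy3 arrays alone (-1.68) and without rat 3595 (-1.77). Most of the 52 genes were chosen for a small p of this difference, and the alternatives reuse most of its arrays, so their kept signs say little. Bmal1 of the clock list, not recomputed, had -0.44 on Cy5 and 0.05 on Cy3 arrays. Leaving out rat 3596 moved 17 of the 52 differences by over 1.5 times, such as Hspa5 to 0.39 and Gzmk to 0.24, and other alternatives moved Klf9 to 0.54 (Cy5 arrays) and Mcm5 to -0.14 (Cy5 arrays) and -0.85 (Cy3 arrays). Of the 10 genes named for the mean of both doses, 199 of 200 values kept their call, the exception being Prelid3b on Cy3 arrays alone (0.43). The count of genes for the dose difference was 1 with scaling, 1 with the 12 rats of 6 h, 2 on Cy3 arrays alone and 0 to 1 with a rat left out (1 without rat 3595), and that of probes 0 to 2. Counts against vehicle grew where arrays were scaled (2230 after 2500 mg/kg, 3092 after 1500 mg/kg, 4229 for the mean), on Cy3 arrays alone (2272, 2750, 4237), on Cy5 arrays alone (1691, 1965, 3494), with the 12 rats of 6 h (1670, 2234, 3540) and, after 2500 mg/kg, with the 8 rats (1291, against 1812 after 1500 mg/kg and 3257 for the mean). They were 111 and 293 with errors widened for the control pool. With a rat left out they were 316 to 1234 after 2500 mg/kg, 689 to 1851 after 1500 mg/kg and 1663 to 3013 for the mean, the highest of each being without 1 rat of the 2500 mg/kg 24 h group, whose profile is distant. The alternative of 878 genes after 2500 mg/kg, without the Cy5 array of rat 3595, and those without the distant rat of the 2500 mg/kg 24 h group, for the mean of both doses and for the 12 h comparison, were chosen after seeing the data. The changes of the dose difference over time had 0 genes under all alternatives run. The difference in spread over genes was 0.0142 to 0.0631, and 0.0241 to 0.0627 with a rat left out. It passed the threshold only without rat 3596, the rat with the lowest value (exact permutation p = 0.0286, the smallest possible there). The cause of these shifts was not tested. The list medians of neutrophil, monocyte, T cell, erythroid, ribosomal protein, translation, oxidative phosphorylation and proteasome genes kept their sign over 8 ways of making the values, a check added after seeing the data, while those of the B cell, MHC class II, platelet, interferon, chemokine, glucocorticoid, glycolysis, clock, liver-enriched, cytochrome P450 and apoptosis lists changed sign under at least 1 of them. No paired analysis was possible because the rats carry unique numbers. The count of rats, 4 per group, and the unequal spread of the groups limit every test, and signal over background is not analysed here.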

Other observations

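Ifit3 averaged 1.21 ± 0.91 after 2500 mg/kg and 0.62 ± 0.26 after 1500 mg/kg at 6 h, and 0.16 ± 0.66 after 2500 mg/kg and 1.20 ± 0.80 after 1500 mg/kg at 24 h (SD, n = 4 each). The change of 1.62 (SE 0.57, limma adjusted p = 0.969) did not pass. Prelid3b averaged 1.04 ± 0.40 after 2500 mg/kg and 0.66 ± 0.18 after 1500 mg/kg at 6 h, and -0.22 ± 0.24 after 2500 mg/kg and -1.01 ± 0.51 after 1500 mg/kg at 24 h.

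Against 150 mg/kg at 6 h, 14 of 9653 genes passed after 2500 mg/kg (2 higher and 12 lower) and 4 after 1500 mg/kg (2 higher and 2 lower). Il1r2 passed after 1500 mg/kg, at 1.55 ± 0.18, against -0.16 ± 0.08 after 150 mg/kg (limma adjusted p = 0.0116). Gnaz passed after 2500 mg/kg, at 0.82 ± 0.11, against -0.01 ± 0.04 after 150 mg/kg (limma adjusted p = 0.00911). Il1r2 and Gnaz were chosen for mention after their values were seen.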
